A study of Mus musculus with 6 samples.

Results

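A set of 10 genes that make, sense and break down retinoic acid was followed in whole mouse kidneys at E13.5, with and without the Wnt and Norrin receptor Fz4. They are the synthetic enzymes Aldh1a1, Aldh1a2 and Aldh1a3, the nuclear receptors Rara, Rarb and Rarg, the binding proteins Crabp1 and Crabp2, the degrading enzyme Cyp26b1 and the retinal reductase Dhrs3. The members were every probe set that the platform annotation gave to 1 of these 10 genes alone, which gave 13 of the 45101 probe sets on the array and 10 of the 18193 genes that had such a probe set. The samples were 3 of Fz4-/- and 3 of Fz4+/+ embryonic kidneys, and litters 1, 2 and 3 each gave 1 sample of each genotype. The labels do not describe the Fz4 allele, the strain or the number of embryos in a sample, and nothing says whether samples were pools. The p-values cover only the spread among these 6 samples. Values are log2 signals per probe set, and levels of different probe sets are not compared with each other, since probes differ in how strongly they bind.

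Retinoic acid is made from vitamin A in successive steps. Retinol dehydrogenases such as Rdh10 oxidise retinol to retinal, which Dhrs3 turns back to retinol, and the Aldh1a enzymes oxidise retinal to retinoic acid. Crabp1 and Crabp2 carry it in the cytoplasm, receptors of the Rar family pair with Rxr receptors at response elements in DNA, and Cyp26 enzymes inactivate it. In the mouse kidney the stroma, which makes Aldh1a2, sends a retinoic acid signal to the ureteric bud, and Rara and Rarb are needed for Ret in the bud and for branching.

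The textbook target site of this pathway lies in front of Rarb, whose level is described below, and is shown for that reason. RefSeq windows of the GRCm38.p6 build, from 250 bases before to 50 bases after a gene start, were found for 8 of the 10 genes, 15 windows in all. They were searched on both strands for pairs of receptor hexamers in the same orientation, 1, 2 or 5 bases apart. The canonical hexamer is AGGTCA. A related form, AGTTCA, was accepted too. So was GGGTCA. The last form accepted was GGTTCA. The 5-base spacing occurred in 1 of the 15 windows, that of Rarb, and in 0.0974% of all 32851 windows. The other spacings occurred in 0 of the 15 windows and in 0.222% and 0.268% of all windows. Single hexamers, which these pairs contain, were in 5 of the 15 windows and in 43.7% of all windows. The accepted forms include both hexamers of the known Rarb site, so its match was fixed by that choice and shows no enrichment. Some of the 15 windows, of Dhrs3 and of Rara, also overlap each other. The 250 bases before the start of Rarb (chr14:16575477-16575726, minus strand) read as follows, with the hexamers of the pair in capitals, from position -53 to -37.
Rarb: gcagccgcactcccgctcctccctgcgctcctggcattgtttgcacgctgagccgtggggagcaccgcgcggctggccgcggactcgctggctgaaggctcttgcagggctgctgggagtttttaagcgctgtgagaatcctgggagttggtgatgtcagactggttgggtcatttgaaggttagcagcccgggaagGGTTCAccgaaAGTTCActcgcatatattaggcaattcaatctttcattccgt
Of the 46 other retinoid pathway genes and retinoic acid response genes, 30 had a window, 41 windows in all. Of these 30 genes 1, the degrading enzyme gene Cyp26a1 on chromosome 19, held a pair 5 bases apart. It lay between positions -32 and -16 on the other strand. Its hexamers have a form that the Rarb site also holds, and Cyp26a1 was listed as a retinoic acid response gene. This match thus shows no enrichment either. Bco1, which cleaves carotene to retinal, held a pair 1 base apart, between positions -56 and -44, also on the other strand. The 2 pairs are set side by side, each on the strand where it reads as a direct repeat.
Rarb repeat: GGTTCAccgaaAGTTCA
Cyp26a1 repeat: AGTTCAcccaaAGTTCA
A match describes these letters and does not show that the site was bound.

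The targeted gene was checked first. On one probe set Fzd4 read 4.37, 3.58 and 6.22 in the Fz4-/- samples of litters 1 to 3, against 11.21, 11.12 and 10.31 in the Fz4+/+ samples. On another it read 4.33, 4.05 and 5.05 in Fz4-/-, against 7.53, 7.72 and 8.48 in Fz4+/+. The genotypes did not overlap on either, though neither passed limma's threshold (adjusted p 0.999988). Their unadjusted limma p-values were 9.57e-05 and 5.98e-05. With the litter as a block these were 0.000691 (adjusted 0.999986) and 4.78e-06 (adjusted 0.129). The threshold thus missed even the targeted gene, so a gene without a call cannot be read as unchanged. The remaining probe set lay near background in all samples, at 2.93 to 3.17 in Fz4-/- and 3.03 to 3.11 in Fz4+/+. Some kidney genes were bright in both genotypes and others were not. Wt1, of nephron progenitors and podocytes, read 11.10 to 11.21 in Fz4-/- and 11.09 to 11.17 in Fz4+/+. Foxd1, which defines the renal stroma, read 11.07 to 11.39 in Fz4-/- and 10.73 to 11.38 in Fz4+/+. Over all samples, 68.5% of the variance lay on the leading principal component. It put both litter 3 samples (65.9 in Fz4-/-, 89.6 in Fz4+/+) apart from the other samples, which lay between -64.3 and 1.36. Both ends of that range came from litter 2, with -64.3 in Fz4+/+ and 1.36 in Fz4-/-. Whether litters also differ in dissection, labelling or hybridisation is not given, so litter and such batches cannot be told apart.

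Whether the retinoic acid genes differ between kidneys with and without Fz4 was asked in a fit over the whole array. No member passed the threshold: limma called 0 of 27022 tested probe sets, or 0%, at an adjusted p of 0.05, and 0 of the 12 tested member probe sets. At an unadjusted p under 0.05 limma gave 239 probe sets, or 0.884%, and 0 members. With the litter as a block these became 841 probe sets, or 3.11%, and 1 member, with 0 adjusted calls. Of the 13 member probe sets, 12 were bright enough to be tested, with a mean of at least 5.89 log2. The remaining one, of Rarg, was not. One probe set per gene, the brightest, gave differences of Fz4-/- minus Fz4+/+ from -0.09 to 0.28 log2 with a median of 0.10. They were above 0 for 8 of the 10 genes, and for 10 of the 12 tested probe sets, against 61.6% of all tested probe sets, and below 0 for Aldh1a2 and Rara. The sign turned for Aldh1a1, Aldh1a2, Rarb, Crabp2 and Dhrs3 when single samples were left out. Over all 12535 tested genes the median difference was 0.0339, and 7962 were above 0. Over all tested probe sets the median was 0.0334, or 0.00978 after quantile normalisation. That step moved Rarb from 0.117 to 0.0634, Rarg from 0.0838 to 0.047 and Crabp2 from 0.0817 to 0.091. Every member gene kept its sign under it. limma's adjusted p was 0.999988 for every tested member probe set, so their differences below are given with 95% intervals. These come from the fit of genotype alone, and the interval with the litter as a block is given after them. Differences of genes outside the set are given without intervals, some with an SE. In whole kidneys, fewer cells that make a transcript and less of it per cell cannot be told apart.

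**Figure D1:**
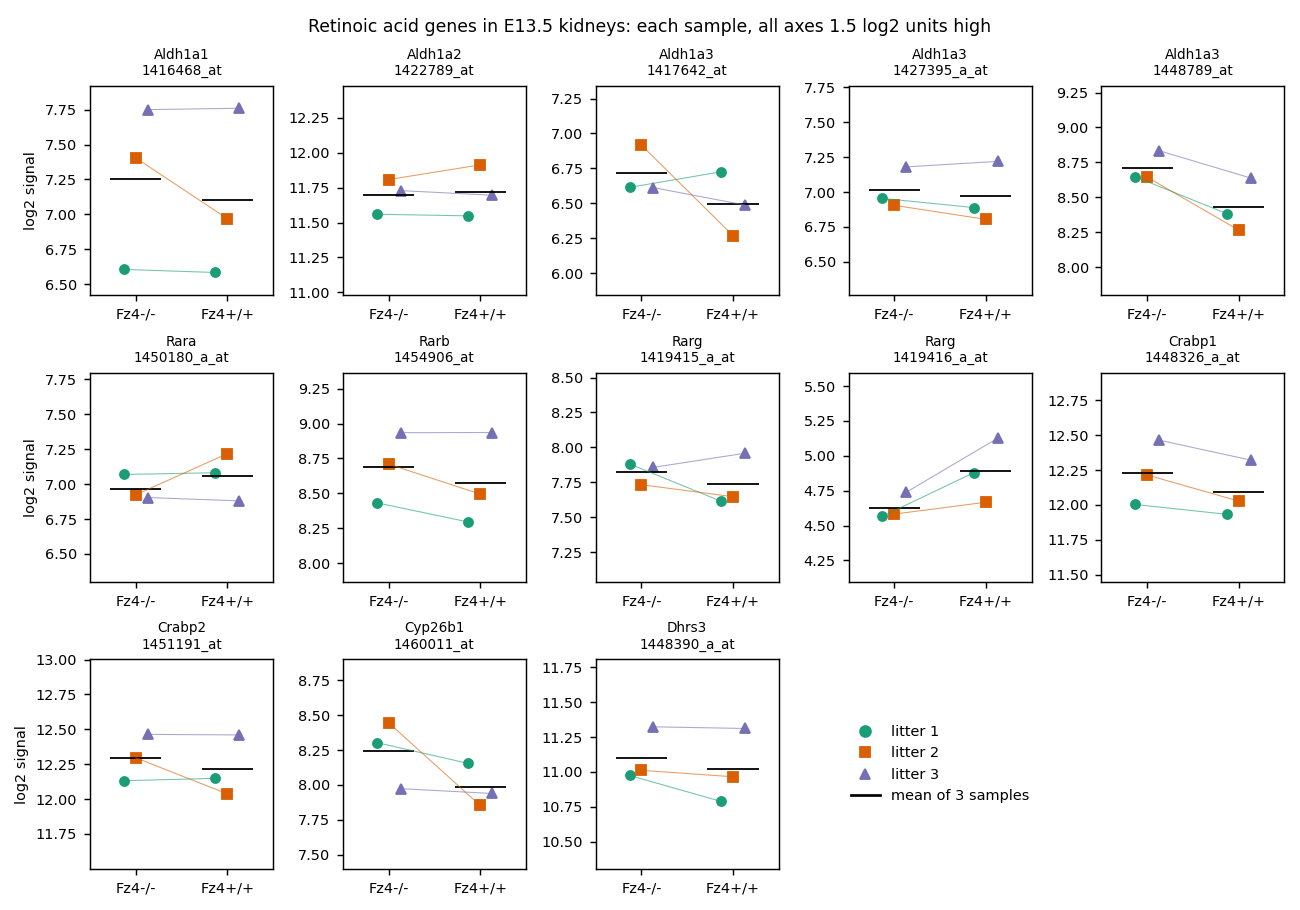
Log2 signal of each of the 13 probe sets (vertical axes, each 1.5 log2 units high) in Fz4-/- and Fz4+/+ kidneys. Points are single samples, marked by litter and joined within a litter, and bars are means of 3 samples. The genotypes overlap in all panels but that of the Aldh1a3 probe set 1448789_at, and the litters lie far apart for Aldh1a1.

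Among the synthetic enzymes, Aldh1a3 came nearest to a separation of the genotypes. Aldh1a3 makes retinoic acid in epithelia, among them the ureteric bud. On its brightest probe set, 1448789_at, it read 8.65, 8.64 and 8.83 in the Fz4-/- samples of litters 1 to 3, against 8.38, 8.26 and 8.64 in the Fz4+/+ samples. The genotypes did not overlap, but the gap was narrow, with 8.644 in the lowest Fz4-/- and 8.638 in the highest Fz4+/+ sample. Such a lack of overlap was met in 3.64% of all tested probe sets, and in 1 of the 12 member probe sets. The difference was 0.28 ± 0.14 (SE, n = 3 each), with a 95% interval of -0.05 to 0.61 and an unadjusted limma p of 0.0857. Its exact permutation p was 0.1, two-sided, the smallest that 3 samples against 3 can give. That test moved samples between litters, so it ignored their pairing. Within litters 1 to 3 the difference was 0.26, 0.38 and 0.20. With the litter as a block the SE was 0.09 and the unadjusted limma p 0.0355, the only member under 0.05 in that fit, at an adjusted p of 0.999986. The interval in that fit was 0.03 to 0.53.

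The other probe sets of Aldh1a3 did not show the same separation. Probe set 1427395_a_at read 6.95, 6.91 and 7.18 in Fz4-/-, against 6.89, 6.80 and 7.22 in Fz4+/+, with a difference of 0.04 (95% interval -0.33 to 0.41, or -0.20 to 0.29 with the litter as a block). Probe set 1417642_at read 6.61, 6.92 and 6.61 in Fz4-/-, against 6.73, 6.27 and 6.49 in Fz4+/+. Its difference of 0.22 (95% interval -0.17 to 0.62, or -0.25 to 0.69 with the litter as a block) rested on litter 2, at 0.65, while litters 1 and 3 gave -0.11 and 0.12. The 3 probe sets thus shared the sign of the mean, and they agreed in sign within litter 2 alone. The mean of 17 markers of the ureteric epithelium, 1 of them under the signal filter, did not overlap between the genotypes either. It was 9.08 to 9.17 in Fz4-/- and 8.77 to 9.04 in Fz4+/+, with an exact permutation p of 0.1 that ignores the pairing by litter. Of its 16 tested genes 13 were above 0 and 3 below, with a median difference of 0.165, and 0 passed the threshold. The lowest was Ret, described below, at -0.18. Some other lists leaned the same way, though their means overlapped between the genotypes. Of 9 tested genes of early nephron epithelium 8 were above 0 and 1 below, with a median of 0.109. Of 9 tested genes of endothelium 7 were above 0 and 2 below, with a median of 0.184. Further lists leaned the opposite way, also with overlapping means. Below 0 were 7 of 10 tested genes of nephron progenitors, 9 of 10 of striated muscle and 5 of 6 of smooth muscle. So were 6 of 7 of neurons and neural crest, 6 of 8 of macrophages and 7 of 7 of liver. Over all 12535 tested genes 7962 were above 0, with a median of 0.0339. The part of the epithelium in the Aldh1a3 difference was not tested.

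Aldh1a2, the main retinoic acid enzyme of mouse embryos, differed least between the genotypes. It read 11.56, 11.81 and 11.73 in Fz4-/- kidneys of litters 1 to 3, against 11.55, 11.91 and 11.70 in Fz4+/+ kidneys. Within litters 1 to 3 the difference was 0.01, -0.10 and 0.03, and the genotypes overlapped. The difference was -0.02 ± 0.14 (SE, n = 3 each), with a 95% interval of -0.36 to 0.32, or -0.26 to 0.22 with the litter as a block.

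Aldh1a1 varied most of the 10 genes, and it did so between litters. It read 6.61, 7.40 and 7.75 in Fz4-/- kidneys and 6.58, 6.97 and 7.76 in Fz4+/+ kidneys of litters 1 to 3. Both genotypes gave nearly the same value in litters 1 and 3, with differences of 0.02 and -0.01, and differed by 0.43 in litter 2. The mean difference of 0.15 had an SE of 0.40 and a 95% interval of -0.83 to 1.13, the widest of the members. With the litter as a block the SE was 0.13 and the interval -0.20 to 0.50.

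The receptors showed no separation of the genotypes. Rarb, the receptor gene that retinoic acid itself induces, read 8.43, 8.71 and 8.93 in Fz4-/-, against 8.29, 8.49 and 8.94 in Fz4+/+. The difference was 0.12 ± 0.21 (SE, n = 3 each), with a 95% interval of -0.40 to 0.64, or -0.14 to 0.37 with the litter as a block. Its parts in litters 1 to 3 were 0.14, 0.21 and -0.0013. Rara, the broadly expressed receptor, read 7.07, 6.92 and 6.90 in Fz4-/-, against 7.08, 7.22 and 6.88 in Fz4+/+. It had the lowest difference of the tested member probe sets, -0.09 ± 0.13 (SE, n = 3 each; 95% interval -0.40 to 0.22, or -0.39 to 0.20 with the litter as a block). Only its litter 2 pair stood clear of 0, at -0.29.

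Rarg, the third receptor, gave opposite signs on its probe sets. The brighter one, 1419415_a_at, read 7.88, 7.73 and 7.86 in Fz4-/-, against 7.61, 7.65 and 7.96 in Fz4+/+, a difference of 0.08 (95% interval -0.24 to 0.40, or -0.22 to 0.38 with the litter as a block). The dimmer one, 1419416_a_at, was under the filter and read 4.57, 4.58 and 4.74 in Fz4-/-, against 4.88, 4.67 and 5.13 in Fz4+/+. In a fit without the filter its difference was -0.26, with an unadjusted limma p of 0.132. RMA compresses differences at such low signals.

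The binding proteins had small genotype differences. Crabp1 read 12.00, 12.22 and 12.46 in Fz4-/-, against 11.93, 12.03 and 12.32 in Fz4+/+. It was higher in the Fz4-/- sample of each litter, by 0.07, 0.19 and 0.14, yet the genotypes overlapped, and the mean difference was 0.13 ± 0.17 (SE, n = 3 each; 95% interval -0.28 to 0.55, or -0.11 to 0.37 with the litter as a block). Crabp2 read 12.13, 12.30 and 12.46 in Fz4-/-, against 12.15, 12.04 and 12.46 in Fz4+/+. Its difference of 0.08 (95% interval -0.30 to 0.46, or -0.20 to 0.36 with the litter as a block) came from litter 2, at 0.26, with -0.02 and 0.0040 in litters 1 and 3.

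Of the genes that lower retinoic acid, Cyp26b1 had the larger difference. It read 8.30, 8.45 and 7.97 in Fz4-/-, against 8.15, 7.85 and 7.94 in Fz4+/+. The lowest Fz4-/- sample lay under the highest Fz4+/+ sample, so the genotypes overlapped. The difference was 0.26 ± 0.16 (SE, n = 3 each), with a 95% interval of -0.14 to 0.65 (-0.13 to 0.64 with the litter as a block), an unadjusted limma p of 0.160 and an exact permutation p of 0.2. It was 0.15, 0.59 and 0.03 in litters 1 to 3. Dhrs3, which turns retinal back to retinol and is itself induced by retinoic acid, read 10.98, 11.01 and 11.32 in Fz4-/-, against 10.79, 10.97 and 11.31 in Fz4+/+. Its difference was 0.08 (95% interval -0.35 to 0.51, or -0.17 to 0.33 with the litter as a block).

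**Figure D2:**
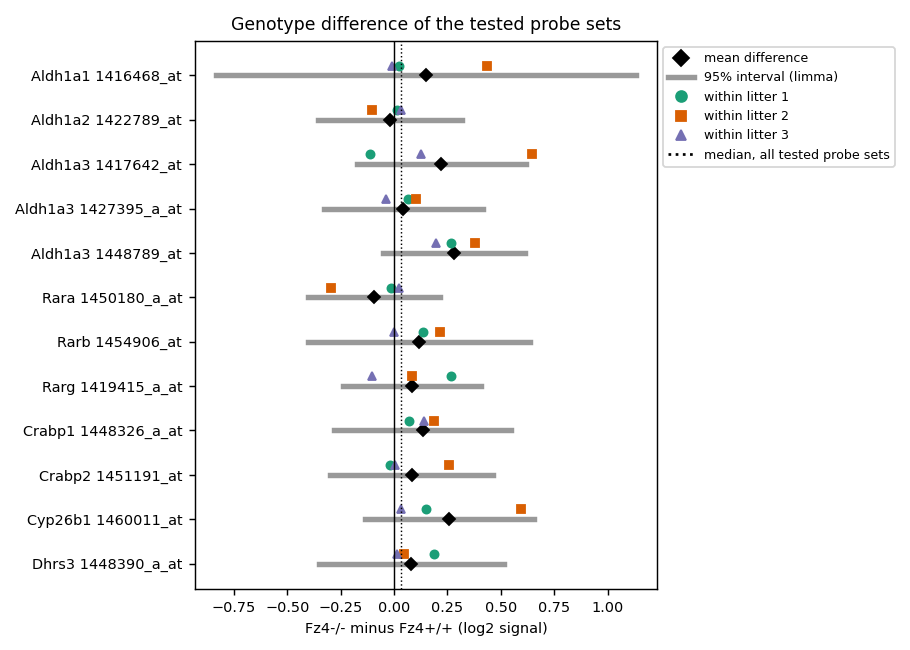
Fz4-/- minus Fz4+/+ in log2 signal (horizontal axis) for the 12 tested probe sets, with limma's 95% interval without the litter block as a grey bar, the differences within each litter as coloured points and the median of all tested probe sets, 0.0334, as a dotted line. Every interval spans 0, and the Aldh1a3 probe set 1448789_at, at 0.28, has all 3 litters clear of 0.

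The direction was the same in all litters, higher in Fz4-/-, for 4 of the 12 tested member probe sets: Aldh1a3 1448789_at, Crabp1, Cyp26b1 and Dhrs3. Among all tested probe sets 14.2% were higher in all litters and 7.28% lower. The smallest within-litter differences of Cyp26b1 and Dhrs3 were 0.03 and 0.01. Litter 2 gave the largest absolute genotype difference for 10 of the 12 probe sets, against 50.8% of all tested probe sets. In that litter the mean of the ureteric epithelium list was 9.17 in Fz4-/- and 8.77 in Fz4+/+, the highest and the lowest of the 6 samples. The mean of the striated muscle list was 6.21 in Fz4-/- and 8.32 in Fz4+/+ of litter 2, and 7.43 to 7.62 in the other samples. The part of these cell types in the litter 2 differences was not tested.

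How the genes vary between litters was asked with an F-test of litter beside genotype. limma called 0 of 27022 probe sets, or 0%, and 0 of 12 members at an adjusted p of 0.05. At an unadjusted p under 0.05 it gave 6225 probe sets, or 23%, and 4 members. These were Aldh1a1 (unadjusted p 0.00354, adjusted 0.145), Rarb (0.0169, adjusted 0.169), Dhrs3 (0.0350, adjusted 0.197) and Crabp1 (0.0359, adjusted 0.198). With single samples left out, members at that unadjusted p numbered 3 when litter 2 lost its Fz4-/- kidneys, 2 when it lost its Fz4+/+ kidneys and 1 in each other case. The call depends on how the variance is moderated. When the prior was allowed to follow signal level and to resist outlying variances, the F-test called 2990 probe sets, or 11.1%, and 5 of the 12 members. Those were Crabp1 (adjusted p 0.00656), Dhrs3 (0.0167), Crabp2 (0.0286), Aldh1a1 (0.0306) and Aldh1a2 (0.0405). Without the Fz4-/- sample of litter 2, Aldh1a1 passed with the constant prior too, at an adjusted p of 0.0410, as did 1506 probe sets. Without the Fz4+/+ sample of litter 2, 326 probe sets and 0 members passed.

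Aldh1a1 had litter means of 6.59, 7.19 and 7.76 in litters 1, 2 and 3, a range of 1.16 log2. Those of Rarb were 8.36, 8.60 and 8.94, those of Crabp1 11.97, 12.12 and 12.39, and those of Dhrs3 10.88, 10.99 and 11.32. In each of these genes both samples of litter 3 lay above all other samples. The same held for Crabp2 and for the Aldh1a3 probe set 1427395_a_at, so for 6 of the 12, against 36.9% of all tested probe sets. Rara went the other way, with both litter 3 samples, at 6.90 and 6.88, under all others, as in 15.5% of all tested probe sets. Aldh1a2 was highest in litter 2, with means of 11.55, 11.86 and 11.71. The median signal of the array was also highest in litter 3, at 6.741 in Fz4-/- and 6.738 in Fz4+/+. It was 6.623 to 6.676 in the other samples. After quantile normalisation the range of litter means was 1.04 for Aldh1a1, 0.41 for Rarb, 0.424 for Crabp1 and 0.391 for Dhrs3. As deposited these ranges were 1.16, 0.572, 0.425 and 0.436. That of Crabp2 stayed at 0.322, and that of Rara rose from 0.183 to 0.307.

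The samples of the 3 litters did not overlap with each other for 4 of the 12 members, Aldh1a1, Aldh1a2, Rarb and Crabp1, a count chosen after the values were seen. All tested probe sets gave 17.1%. The mean of 15 stromal genes, all above the filter, was 10.96, 11.01 and 11.10 in Fz4-/- and 10.81, 11.03 and 11.06 in Fz4+/+ kidneys of litters 1 to 3, lowest in litter 1 and highest in litter 3, whereas Aldh1a2 was highest in litter 2. Of these 15 genes, 0 had an unadjusted p under 0.05 in limma's F-test of litter, and 0 were called after adjustment. Macrophage markers also read highest in litter 3, where 9 genes, 1 of them under the filter, averaged 7.85 in Fz4-/- and 8.15 in Fz4+/+, against 7.49 to 7.60 in the other samples. The excess of 3' over 5' signal of actin, a sign of RNA quality, was 0.64 and 0.76 in the Fz4-/- and Fz4+/+ samples of litter 3, against 0.75 to 0.90 in the other samples. For Gapdh it was 0.750 and 0.897 in the Fz4-/- and Fz4+/+ samples of litter 3, the lowest and the highest of the 6, against 0.760 to 0.895 in the other samples. The part of these measures in the litter ranges was not tested.

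**Figure D3:**
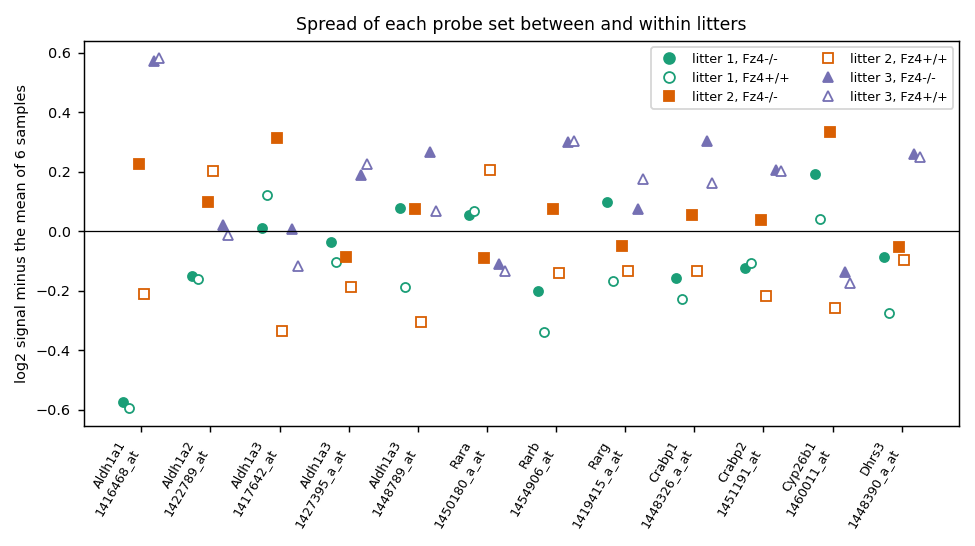
Log2 signal of each tested probe set after subtraction of its mean over the 6 samples (vertical axis), by litter, with filled marks for Fz4-/- and open marks for Fz4+/+. Both Aldh1a1 samples of litter 1 lie far under both of litter 3, and Rarb, Crabp1, Crabp2 and Dhrs3 are highest in litter 3.

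The genes most like the 3 members of widest range were found by Pearson's r over the 6 arrays, among 12534 other tested genes. For Aldh1a1 they were Lpar2 (r = 0.999) and Mxra8 (0.998), for Rarb B130024G19Rik (0.998) and Nbdy (0.997), and for Cyp26b1 Bcl2l12 (0.993) and Ano6 (0.964). With so few arrays, sharing litters and genotypes, high values are common: 8.35% of genes had r over 0.9 with Aldh1a1, 10.5% with Rarb and 0.455% with Cyp26b1. These are descriptions of 6 arrays.

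The rest of the pathway was described from fixed lists. Of 27 other retinoid pathway genes 22 were annotated and 16 tested. Of these, 9 were above 0 and 7 below, 0 passed the threshold in either direction, and the median difference was 0.0396. Stra6, the cell-surface receptor that takes up retinol, read 9.09, 9.37 and 9.13 in Fz4-/-, against 8.83, 9.03 and 9.07 in Fz4+/+. Its genotypes did not overlap, but the gap was narrow, with 9.088 in the lowest Fz4-/- and 9.073 in the highest Fz4+/+ sample. A lack of overlap was met in 3.64% of all tested probe sets. The difference of Stra6 was 0.22 ± 0.13 (SE, n = 3 each; unadjusted limma p 0.143). Rdh10, which makes retinal for the Aldh1a enzymes, read 10.63, 10.63 and 10.58 in Fz4-/-, against 10.65, 10.97 and 10.67 in Fz4+/+, on its brighter probe set. There the genotypes did not overlap, again narrowly, with 10.630 in the highest Fz4-/- and 10.655 in the lowest Fz4+/+ sample. The difference was -0.15 ± 0.12 (SE), and -0.02, -0.34 and -0.09 within litters 1 to 3. On its other probe set the difference was -0.03. Rxra and Rxrb, partners of the Rar receptors, differed by 0.06 and 0.10. Cyp26a1, whose window holds the repeat shown above, read 6.90, 6.62 and 6.74 in Fz4-/-, against 6.90, 6.70 and 7.23 in Fz4+/+, a difference of -0.19 ± 0.17 (SE). Rbp4, the retinol carrier of blood, was under the filter and ranged from 5.17 to 5.97 in Fz4-/- and from 5.02 to 6.73 in Fz4+/+.

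Of 22 genes known to respond to retinoic acid, 18 were annotated and 15 tested. Of these, 9 were above 0 and 6 below, 0 passed the threshold in either direction, and the median difference was 0.0356. Over all tested genes the median was 0.0339. Tgm2, a transglutaminase gene that retinoic acid induces in many cells, read 10.50, 10.61 and 10.89 in Fz4-/-, against 10.13, 10.19 and 10.57 in Fz4+/+ on its brightest probe set. It was higher in the Fz4-/- sample of each litter, by 0.37, 0.42 and 0.32, though the genotypes overlapped. The difference was 0.37 ± 0.17 (SE, n = 3 each), with an unadjusted limma p of 0.0767, or 0.0117 with the litter as a block, at an adjusted p of 0.999986 in that fit. On its 4 other tested probe sets the difference was 0.29, 0.29, 0.27 and -0.06. Ret, the branching receptor of the ureteric tip, read 9.32, 9.46 and 9.31 in Fz4-/-, against 9.49, 9.57 and 9.59 in Fz4+/+. Its genotypes did not overlap on this probe set, and the difference was -0.18 ± 0.10 (SE, n = 3 each; unadjusted limma p 0.115). On its dimmer probe set, where the genotypes overlapped, it was -0.02. Tshz3 had the smallest unadjusted limma p of the list, 0.0588, or 0.0306 with the litter as a block (adjusted 0.999986). Its genotypes did not overlap, with 10.68 in the lowest Fz4-/- and 10.64 in the highest Fz4+/+ sample. It was higher in Fz4-/- by 0.29, 0.28 and 0.24 in litters 1 to 3. As above, 3.64% of all tested probe sets lacked overlap.

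**Figure D4:**
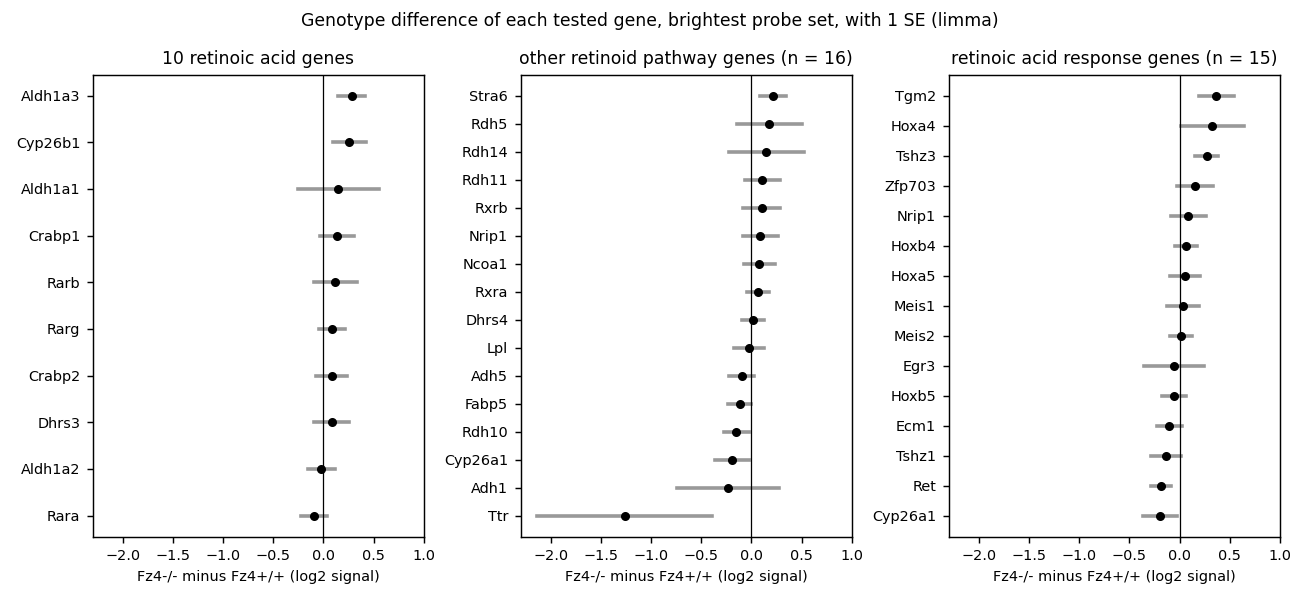
Fz4-/- minus Fz4+/+ in log2 signal (horizontal axes) for the brightest probe set of each tested gene among the 10 retinoic acid genes, the other retinoid pathway genes and the retinoic acid response genes. Grey bars are 1 SE from limma on either side. Most genes lie within 0.3 log2 of 0, and Ttr, at -1.27, has a wide error.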

How the data were processed

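RNA of whole E13.5 kidneys was hybridised as biotin-labelled cRNA on Affymetrix MOE430.2 arrays. The deposited table holds RMA values on a log2 scale, per the submitters' processing notes, which name no version. RMA makes arrays nearly equal in distribution, so a change in total RNA could not be seen. The values ran from 2.22 to 14.79 and were used as deposited, and 0 columns were left unused. Detection calls were not made.

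After 64 control probe sets were removed, the 27022 probe sets at or above the 40th percentile of mean signal (5.89 log2) were tested. The main model (limma 3.58.1, R 4.3.3) held genotype alone, with moderated two-sided tests and Benjamini-Hochberg adjustment over all tested probe sets at 0.05. Litters were compared by limma's F-test in a fit of genotype and litter. Both fits were run on simulated data as a check of the code. For the genotype fit the simulated data held no litter effects, unlike the samples here, so they say nothing of its error rate here. Single values were compared by exact permutation of all 6 samples, which ignores the pairing by litter. A gene needed once was represented by its brightest probe set, and gene names came from the platform annotation. Named genes were all members, a fixed part of each list, and the 2 genes most correlated with each of the 3 members of widest range. Tshz3 was added after the values were seen. Members and lists were chosen with earlier results of these data known.

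Samples are paired, because per the labels a number marks a shared litter. Between the samples of litters 1 to 3, departures from the group means correlated by 0.577, 0.178 and 0.809. Precision is limited by there being 6 arrays.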

Additional observations from a re-analysis of the deposited data

How the results depend on the processing

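The count of 0 member probe sets past limma's threshold between the genotypes held in each of the 13 alternatives that changed the filter, normalisation, prior, litter term, array weights or a left-out sample (range 0 to 0 without single samples). The count over all probe sets was 0 in 12 of them and 2 with array weights, both of Fzd4. The litter as a replicate block left both counts at 0, changed no call, and gave 841 probe sets at an unadjusted p under 0.05 against 239. That count was also 531 without the filter and 367 with a filter at the 20th percentile, 126 with the trended prior, 940 with the litter as a random effect and 6084 with array weights. It ran from 124 to 1725 without single samples. Among the 12 member probe sets the count at that unadjusted p was 0 in the genotype fit and 5 with array weights. It was 1 with quantile normalisation and with the litter as a block or as a random effect. Leaving out either of the litter 3 samples also gave 1. The array weights were 0.658, 8.81 and 0.509 in the Fz4-/- samples of litters 1 to 3. They were 2.99, 0.521 and 0.218 in the Fz4+/+ samples. The weighted fit thus set mainly the Fz4-/- sample of litter 2 against the Fz4+/+ sample of litter 1. Its counts mix litter with genotype.

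Signs of uncalled differences turned in some settings. Array weights moved Aldh1a1 to 0.663 (unadjusted limma p 0.0229, adjusted 0.176) and Rarb to 0.342 (0.0226, adjusted 0.175). They moved Crabp1 to 0.245, Crabp2 to 0.142, Dhrs3 to 0.181 and Rara to -0.157. Each of these moved by over 1.5 times. Since the weights favour samples of different litters, such shifts mix litter with genotype. Aldh1a2 read 0.18 with array weights and ran from -0.106 to 0.077 without single samples, and Rarg read -0.0889 as the mean of its probe sets. Without single samples Aldh1a1 ran from -0.112 to 0.477, Rarb from -0.0234 to 0.297, Crabp2 from -0.00714 to 0.204 and Dhrs3 from -0.0353 to 0.226. The differences of Aldh1a3 (0.198 to 0.385), Cyp26b1 (0.156 to 0.392), Crabp1 (0.0149 to 0.247), Rara (-0.185 to -0.0154) and Rarg (0.0212 to 0.193) kept their sign without single samples.

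The litter F-test gave 0 calls with no filter, with the filter at the 20th percentile and with quantile normalisation. It gave 2990 probe sets and 5 members with the trended, robust prior, and 3 probe sets and 0 members with no genotype term. Without single samples it gave 0 to 1506 probe sets and 0 to 1 members. The cause was not tested. Leaving out a sample leaves a litter with 1 sample, assumed to vary like the others.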
